A study of Rattus norvegicus with 9 samples.

Results

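Nf1, the Ras GTPases and their regulators were followed in rat Schwann cells in primary culture, which are the myelinating glia of peripheral nerve. The genes were listed by name as Nf1, Nras, Hras, Mras, Rasal2, Rasa2, Sos1, Map2k2 and Rasd1, and every probe set annotated to exactly 1 of them was taken. That gave 10 probe sets of 8 genes, out of 31042 probe sets and 14213 named genes. Hras has no value here, since its single probe set is also annotated to another gene. The genes were chosen by name with the intensities of all 9 arrays and all 3 comparisons in view, so the values of these genes are a description and carry no test.

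The cells were from sciatic nerve and fell into 3 groups of 3 independent replicates, with 1 expression array each. Control RNAi cells were transfected with scrambled oligonucleotides, NF1 RNAi cells with oligonucleotides against Nf1, and NF1 RNAi + U0126 cells with the Nf1 oligonucleotides in the presence of U0126 (UO126 in the sample labels), an inhibitor of MEK. All groups share transient transfection, and RNA was taken after 48 hours. Scrambled-control cells given U0126 were not analysed here, so the inhibitor was followed only in knockdown cells. The labels give no age or strain of the animals, no dose of U0126 and no oligonucleotide sequence.

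Ras proteins are small GTPases that signal when bound to GTP and stop when they hydrolyse it. Exchange factors such as Sos1 load them with GTP, and GTPase-activating proteins such as neurofibromin, the product of Nf1, switch them off. Active Ras engages Raf kinases, which activate MEK (Map2k1 and Map2k2), which in turn activates ERK. In people, loss of NF1 in Schwann cells gives rise to neurofibromas.

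The stretch just before the start of 3 genes is shown because these are the genes other than the targeted Nf1 with the largest differences on the arrays. Each run is the 250 bases before the gene's start in RefSeq (build GRCr8), read 5′ to 3′ along the gene's strand. Capitals mark matches on either strand to the GC box (GGGCGG), the ETS motif (CCGGAAGT), the CRE (TGACGTCA), the E-box (CACGTG) or the AP-1 motif (TGANTCA). The Nras run lies at chr2:193271220-193271469 on the plus strand, the Rasd1 run at chr10:45267683-45267932 on the minus strand and the Rasal2 run at chr13:72102724-72102973 on the minus strand.
Nras: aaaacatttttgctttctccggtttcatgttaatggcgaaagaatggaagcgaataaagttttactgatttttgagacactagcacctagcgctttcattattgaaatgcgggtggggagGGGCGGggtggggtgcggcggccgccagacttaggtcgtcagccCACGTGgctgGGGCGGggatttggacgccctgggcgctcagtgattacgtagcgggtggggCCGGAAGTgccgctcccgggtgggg
Rasd1: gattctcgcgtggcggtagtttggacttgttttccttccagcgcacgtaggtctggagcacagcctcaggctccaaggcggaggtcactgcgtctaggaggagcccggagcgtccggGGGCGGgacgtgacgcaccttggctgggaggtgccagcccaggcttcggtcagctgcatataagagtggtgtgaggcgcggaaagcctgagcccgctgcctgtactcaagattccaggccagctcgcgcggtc
Rasal2: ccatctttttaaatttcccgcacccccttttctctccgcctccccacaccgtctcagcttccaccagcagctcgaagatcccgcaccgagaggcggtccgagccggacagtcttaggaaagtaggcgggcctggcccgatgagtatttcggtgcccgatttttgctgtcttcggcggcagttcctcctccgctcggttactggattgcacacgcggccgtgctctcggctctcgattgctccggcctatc
The Nras run holds 2 GC boxes, whose first bases lie 130 and 76 bases before the start, an E-box at 86 bases and an ETS match at 25 bases. The Rasd1 run holds 1 GC box, at 133 bases, and the Rasal2 run holds none of these letters. No 2 matches overlap. Among 33469 such runs of equal length in the RefSeq table, 30.5% hold a GC box, 3.1% the ETS motif, 5.59% the E-box, 6.34% the AP-1 motif and 1.59% the CRE. A match describes the letters and does not show a bound site.

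Levels below are RMA intensities on a linear scale, and differences are log2 differences ± the standard error (SE) of a limma fit over all probe sets, with n = 3 arrays per group throughout. The log2 scale is log2(intensity + 1), which understates differences of dim probe sets. Array medians ran from 94.6 to 96.7, and replicate 1 was the most distant array in every group (the SD of log2 differences between control replicates was 0.31 and 0.36 with replicate 1 and 0.15 without). Of 8 measured Schwann cell markers, 6 (S100b, Sox10, Pmp22, Ngfr, Gap43 and Erbb3) lay at percentiles of 86.1 to 99.6 of the control arrays, and Egr2 and Foxd3 at 52.1 and 66.0. Their summed intensity was 26044 to 37768 in control cells, 33493 to 37805 after knockdown and 28313 to 31185 when the inhibitor was added. Of 11 Schwann marker probe sets, 1 rose and 3 fell with NF1 RNAi (limma adjusted p under 0.05), or 36.4% against 20.4% of all probe sets. The rise was in 1 gene and the falls were in 2, with a median log2 difference of 0.03. The falls included both probe sets of Pmp22, a myelin protein gene (−1.96 ± 0.35 and −1.86 ± 0.29, limma adjusted p = 0.00446 and 0.00228). Between the knockdown groups none of the 11 rose and 4 fell with U0126 (median −0.20, against 0.02 over all probe sets). In the inhibitor group against control 1 rose and 5 fell, or 54.5% against 28.1% of all probe sets (median −0.37, against 0.05). With 1 array left out, the falls numbered 2 to 5 between the knockdown groups and 4 to 6 against control. Of 8 fibroblast markers the collagens Col1a1 and Col3a1 lay at percentiles of 99.9 and 98.6 and the other 6 at 0.4 to 57.3, and the sum was 20969 to 22979, 15069 to 16002 and 10583 to 16067 in the same order of groups. Of 6 neuron markers Nefl, Nefm and Tubb3 lay at 96.5, 97.2 and 77.3 and the others at 15.9 to 31.4, with sums of 4769 to 8488, 1057 to 2172 and 3681 to 4198. The 6 endothelial and mural markers lay at 10.4 to 72.0 and summed to 439 to 582, 402 to 410 and 389 to 505, and the 8 macrophage and leukocyte markers lay at 1.5 to 43.9 and summed to 304 to 333, 334 to 347 and 381 to 442. The beta-actin 3′ minus 5′ log2 difference, a sign of RNA integrity, was 0.60, 0.62 and 0.90 in control arrays and 0.78 to 0.87 in the others. The part of these shifts in the results below was not tested.

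The targeted gene was lower on every array that received Nf1 oligonucleotides. Nf1 (probe set 1369014_at) read 99.3, 95.6 and 70.0 in control cells, 41.1, 41.5 and 42.4 with NF1 RNAi, and 42.5, 51.7 and 40.9 with NF1 RNAi + U0126. The control arrays did not overlap either knockdown group, the 2 knockdown groups overlapped each other, and the control array nearest to them was replicate 3. Nf1 differed from control by −1.05 ± 0.13 with NF1 RNAi and by −0.95 ± 0.13 with the inhibitor added, and U0126 made a difference of 0.10 ± 0.13 between knockdown groups. Both knockdown groups lay low on the array, at mean percentiles of 32.7 and 33.9 against 48.2 in control cells, where signal from other sources weighs more. In bulk RNA, less Nf1 in each cell and fewer cells with Nf1 cannot be told apart.

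**Figure D1:**
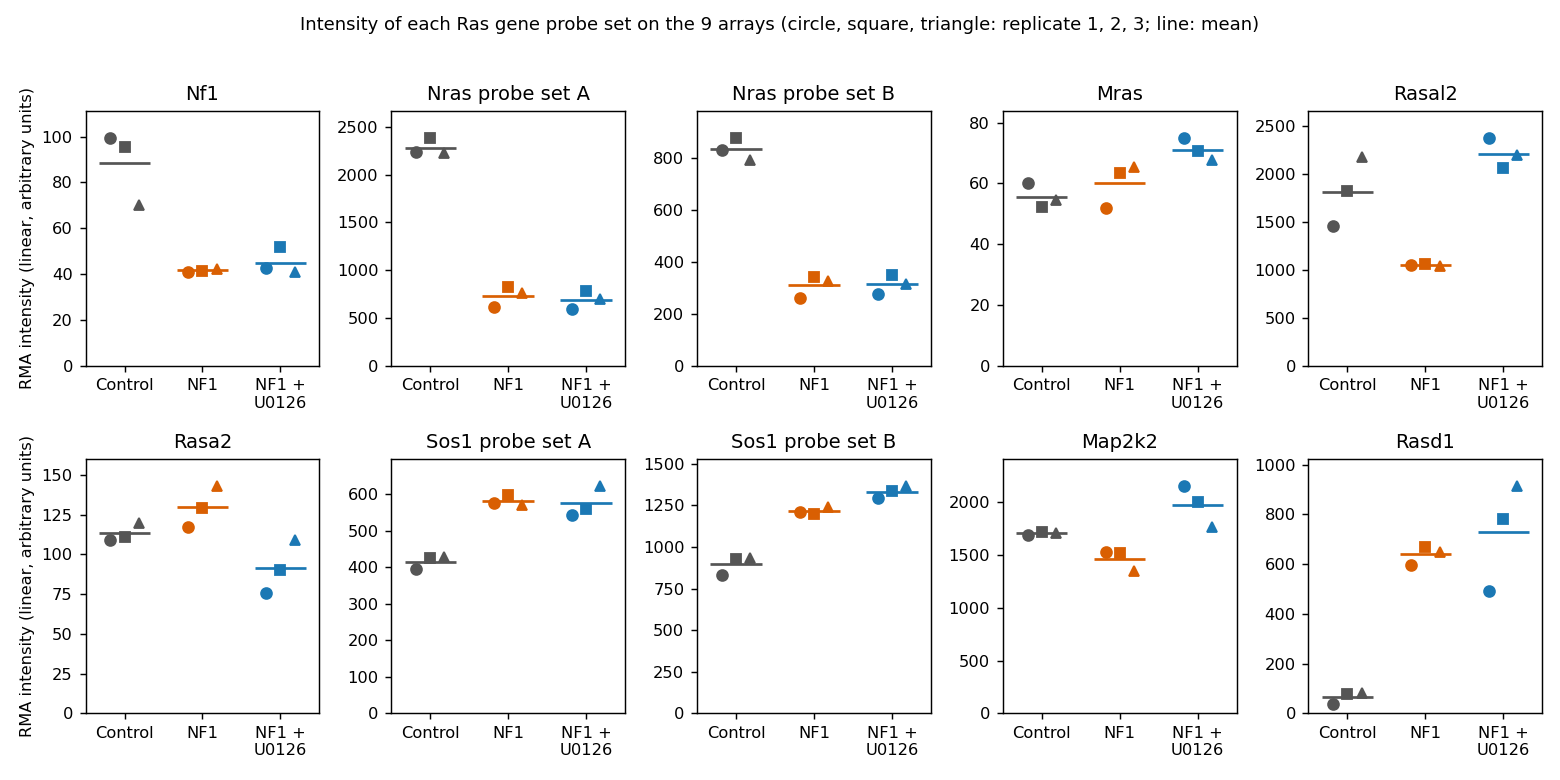
RMA intensity (vertical axis, linear, from 0) of the 10 probe sets, with the control, NF1 RNAi and inhibitor groups side by side. Points are arrays (circle, square and triangle for replicates 1, 2 and 3) and lines are group means. Nf1 and both Nras probe sets are lower in both knockdown groups, Rasd1 and Sos1 are higher in both, and Rasal2 is lowest with NF1 RNAi alone.

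Nras, one of the classical Ras GTPases that neurofibromin acts on, was lower in both knockdown groups on both of its probe sets. The first (1372032_at, probe set A) read 2231, 2380 and 2229 in control cells, 611, 822 and 757 with NF1 RNAi, and 588, 782 and 695 with NF1 RNAi + U0126. The second (1387678_at, probe set B) read 834, 878 and 794, then 263, 342 and 328, then 277, 349 and 314. On both, every control array was above every knockdown array and the knockdown groups overlapped. The differences from control with NF1 RNAi were −1.65 ± 0.13 and −1.43 ± 0.12, a level 3.14-fold and 2.70-fold lower. They stood at ranks 191 and 296 from the lowest of 31042 probe sets. With U0126 the knockdown cells differed by −0.08 ± 0.13 and 0.01 ± 0.12 from those without it, and from control by −1.74 ± 0.13 and −1.42 ± 0.12. After each probe set was centred on its own mean, the pair never differed by more than 0.22 on the log2 scale on any of the 9 arrays. Mean Nras intensity with NF1 RNAi was 32.0% and 37.2% of its control mean on the 2 probe sets.

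Mras, a GTPase related to the classical Ras proteins that works with Shoc2 in Raf activation, was dim on all arrays. Its probe set (1387368_at) read 60.3, 52.2 and 54.5 in control cells, 51.8, 63.6 and 65.4 with NF1 RNAi, and 74.9, 70.8 and 67.8 with NF1 RNAi + U0126. Control and NF1 RNAi arrays overlapped (0.11 ± 0.10), while the inhibitor group was above both, by 0.24 ± 0.10 over NF1 RNAi and 0.35 ± 0.10 over control. Replicate 1 went against the other pairs in the first comparison, at −0.22 against 0.28 and 0.26. Mras had all its control arrays below a log2 level of 6 and passed a filter at that level through the knockdown groups.

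Rasd1, a Ras-like GTPase first known as a gene induced by dexamethasone, was higher in both knockdown groups by the widest margin of the listed genes. Its probe set (1387908_at) read 38.2, 76.1 and 82.8 in control cells, 598, 670 and 650 with NF1 RNAi, and 492, 781 and 914 with NF1 RNAi + U0126. No control array came near the others, and the 2 knockdown groups overlapped. The difference with NF1 RNAi was 3.34 ± 0.30, at rank 3 of 31042 from the highest, and with NF1 RNAi + U0126 it was 3.48 ± 0.30, at rank 14. Control replicate 1 was the lowest control array: leaving out one array at a time, the first difference ran from 2.99 to 3.54 and the second from 3.14 to 3.74. Between the knockdown groups the difference was 0.14 ± 0.30, with same-numbered arrays differing by −0.28, 0.22 and 0.49.

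Among the GTPase-activating proteins, Rasal2 was lowest in NF1 RNAi cells without the inhibitor. Its probe set (1378740_at) read 1458, 1820 and 2173 in control cells, 1047, 1056 and 1043 with NF1 RNAi, and 2373, 2067 and 2197 with NF1 RNAi + U0126. The 3 NF1 RNAi arrays were close together and below all 6 others, and the inhibitor group overlapped control. Rasal2 differed by −0.77 ± 0.13 between NF1 RNAi and control, by 1.07 ± 0.13 between the inhibitor and NF1 RNAi groups, and by 0.30 ± 0.13 between the inhibitor and control groups. The control arrays were the widest of the 3 groups, and the same-numbered differences from control in the last comparison were 0.70, 0.18 and 0.02.

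Rasa2, another GTPase-activating protein for Ras, went the other way with the inhibitor. Its probe set (1384386_at) read 109, 111 and 120 in control cells, 117, 129 and 143 with NF1 RNAi, and 75.6, 90.3 and 109 with NF1 RNAi + U0126. The first pair of groups overlapped (0.19 ± 0.13). The inhibitor group was below NF1 RNAi on every array, by −0.51 ± 0.13, and its highest array lay just under the lowest control array (−0.32 ± 0.13). In all 3 same-numbered pairs the inhibitor array was the lower one.

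Sos1, the exchange factor that couples growth factor receptors to Ras through Grb2, was higher in both knockdown groups on both probe sets. The first (1385959_at, probe set A) read 395, 425 and 428 in control cells, 576, 597 and 570 with NF1 RNAi, and 543, 561 and 623 with NF1 RNAi + U0126. The second (1389710_at, probe set B) read 832, 927 and 935, then 1213, 1197 and 1240, then 1296, 1336 and 1367. All control arrays were below all knockdown arrays. The differences from control were 0.48 ± 0.07 and 0.44 ± 0.06 with NF1 RNAi, and 0.47 ± 0.07 and 0.57 ± 0.06 with the inhibitor added. Between the knockdown groups the first probe set overlapped (−0.02 ± 0.07), and on the second the inhibitor arrays were all higher, by 0.13 ± 0.06.

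Map2k2, which encodes MEK2 and is a direct target of U0126 at the protein level, was measured by probe set 1398834_at and read 1689, 1717 and 1708 in control cells. It read 1527, 1514 and 1346 with NF1 RNAi and 2152, 2002 and 1766 with NF1 RNAi + U0126. The 3 groups did not overlap: NF1 RNAi was the lowest and the inhibitor group the highest. The differences were −0.22 ± 0.08 from control with NF1 RNAi, 0.43 ± 0.08 between the knockdown groups and 0.21 ± 0.08 between the inhibitor group and control. Map2k1, the gene of the partner kinase MEK1 and outside the listed genes, had control, NF1 RNAi and inhibitor means of 2549, 3048 and 2710. It rose by 0.26 ± 0.06 with NF1 RNAi (limma adjusted p = 0.019), a call lost without Control RNAi replicate 2 or NF1 RNAi replicate 1, and differed by −0.17 ± 0.06 with U0126 (adjusted p = 0.146).

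**Figure D2:**
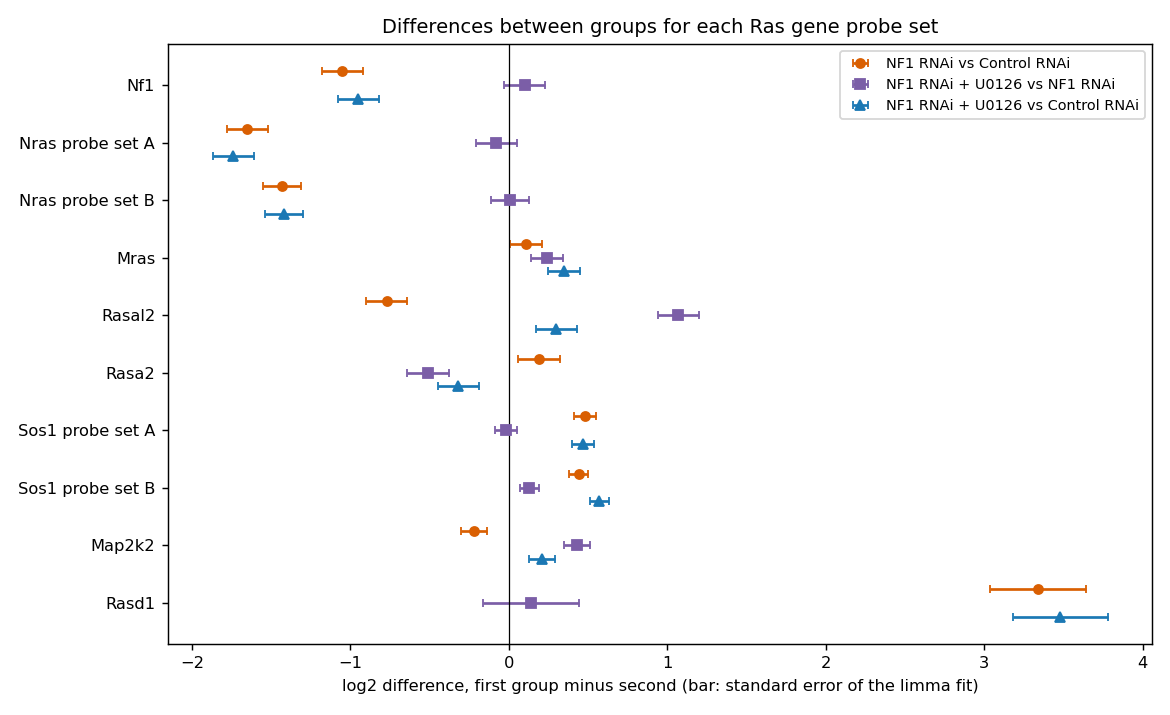
Log2 difference (horizontal axis; bar, SE of the limma fit) of each probe set in the 3 comparisons, named by first group against second. Rasal2, Map2k2 and Rasa2 lie away from 0 between the knockdown groups (1.07, 0.43 and −0.51), where Nf1, Nras and Rasd1 lie within 1 SE of 0.

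At an adjusted p under 0.05 over all 31042 probe sets (limma, Benjamini-Hochberg), 3 of the 10 probe sets were higher and 4 lower with NF1 RNAi, against 10.6% of all probe sets called higher and 9.84% lower (20.4% in all). Between the knockdown groups 2 were higher (Rasal2 and Map2k2) and 1 lower (Rasa2), against 4.45% called higher and 5.58% lower (10% in all). Rasa2 lost its call in 5 of 9 single-array exclusions, namely Control RNAi replicate 2, NF1 RNAi replicates 2 and 3, and NF1 RNAi + U0126 replicates 1 and 2. Between the inhibitor group and control 4 were higher and 3 lower, against 14.2% and 13.9% (28.1% in all), and with the replicate number as a block 4 were lower, Rasa2 being added. In that comparison Mras lost its call in 4 single-array exclusions (Control RNAi replicates 2 and 3, NF1 RNAi + U0126 replicates 1 and 2). The groups did not overlap for 8, 5 and 9 of the 10 probe sets, against 35.3%, 28.6% and 41.0% of all probe sets. Since the genes were listed with these comparisons known, nothing is read from these counts. The comparisons also share arrays, so they are not independent of each other.

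The wider pathway was followed in 7 lists of other genes, ordered by role, of which 97 of 118 genes were measured by 150 probe sets. The other listed genes were not analysed here. With NF1 RNAi, 16 of the 150 probe sets rose and 13 fell, or 19.3% against 20.4% of all probe sets, with a median log2 difference of 0.02 in both. Between the knockdown groups 6 rose and 6 fell with U0126, or 8% against 10% (medians −0.02 and 0.02), and after quantile normalization 8 rose and 4 fell. Without Control RNAi replicate 1, whose spread enters the shared fit, 8 rose and 15 fell there. Between the inhibitor group and control 23 rose and 27 fell, or 33.3% against 28.1% (medians both 0.05). In that comparison the share passing was 37.5% for Ras family GTPases, 11.8% for exchange factors, 14.3% for GTPase-activating proteins, 33.3% for adaptors, 57.9% for Raf, MEK and ERK, 61.5% for lipid enzymes and 19.2% for other effectors. In the same order 17.5%, 5.88%, 7.14%, 23.8%, 36.8%, 38.5% and 11.5% passed with NF1 RNAi. The lists differ in brightness, with 28 of 40, 5 of 17, 10 of 14, 17 of 21, 17 of 19, 13 of 13 and 15 of 26 probe sets at a log2 level of 6 or more in at least 3 arrays, and the part of brightness in these shares was not tested.

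Other Ras family GTPases moved in both directions. With NF1 RNAi, 6 of 40 probe sets rose and 1 fell, and all 6 rises were in Rap2c, a Rap GTPase, and Nkiras1, a Ras-like inhibitor of NF-kappaB signalling. All 3 Rap2c probe sets rose, the brightest from a mean intensity of 655 to 1323 (1.0 ± 0.10, adjusted p = 0.000256), as did all 3 of Nkiras1 (0.60 to 0.94). Rap1a fell by 0.73 ± 0.17 on 1 of its 2 probe sets (adjusted p = 0.0137, a call lost without Control RNAi replicate 2 or NF1 RNAi replicate 1), and the other differed by −0.02. In this list 8 rose and 3 fell with the replicate block, and 6 rose and 5 fell without Control RNAi replicate 1. With U0126, Rasl11b, a Ras-like GTPase, rose from 122 to 277 (1.17 ± 0.13, adjusted p = 0.000815). Gem, a GTPase that binds calcium channel beta subunits, fell from 212 to 80.3 (−1.41 ± 0.20, adjusted p = 0.00242), and Rap1b fell by 0.42 ± 0.06 on 1 of 2 probe sets (adjusted p = 0.00235). With the replicate block 1 rose and 4 fell there, and without Control RNAi replicate 1, 1 rose and 5 fell. Against control, 8 rose and 7 fell in the inhibitor group, led by Rap2c (1.19 ± 0.10), Rasl11b (1.13 ± 0.13) and Gem (−1.61 ± 0.20).

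Of 17 probe sets of exchange factors other than Sos1, most of them dim, 1 fell with NF1 RNAi and none passed in limma between the knockdown groups (1 at an unadjusted p under 0.05). The fall was Rapgef4, at mean intensities of 8.98 and 7.68 near the floor of the array (−0.20 ± 0.06, adjusted p = 0.0309), and it was lost when any of 5 arrays was left out, Control RNAi replicate 1 among them. In the inhibitor group 1 rose and 1 fell against control, Rapgef1 (0.44 ± 0.11, adjusted p = 0.015, lost without Control RNAi replicate 2) on 1 of 2 probe sets and Rapgef4, and with the replicate block 2 rose.

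Of 14 probe sets of other Ras and Rap GTPase-activating proteins and neurofibromin partners, 1 rose with NF1 RNAi, Sipa1, a Rap GTPase-activating protein (0.49 ± 0.11, adjusted p = 0.0115). With the replicate block 1 also fell, and 1 fell without Control RNAi replicate 3, while 2 rose without NF1 RNAi + U0126 replicate 1. Rasa1, the p120 GTPase-activating protein, differed by 0.02 ± 0.07 and 0.08 ± 0.10 on its 2 probe sets (adjusted p = 0.909 and 0.661). With U0126 1 fell, Spred3, of the Spred family whose members bind neurofibromin (−0.70 ± 0.17, adjusted p = 0.031). That call was lost when any 1 array of the knockdown groups was left out, and the other Spred3 probe set differed by 0.10. The 2 Rasa1 probe sets differed by −0.16 ± 0.07 and −0.23 ± 0.10 (adjusted p = 0.227 and 0.205). Without Control RNAi replicate 1, 2 fell. Against control the inhibitor group had 1 rise (Sipa1, 0.36 ± 0.11, adjusted p = 0.032, lost without Control RNAi replicate 1 among others) and 1 fall (Spred3, −1.10 ± 0.17, adjusted p = 0.00122), or 2 falls with the replicate block or without Control RNAi replicate 1 or 3.

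Among adaptors, Shc4, a Shc-family adaptor, rose in every comparison. Its mean was 391 in control cells, 693 with NF1 RNAi (0.82 ± 0.12, adjusted p = 0.00128) and 1086 with the inhibitor added (0.64 ± 0.12 over NF1 RNAi, adjusted p = 0.00861). Cbl, a ubiquitin ligase for activated receptors, had a mean of 951 on its brightest called probe set in control cells, 757 with NF1 RNAi (−0.33 ± 0.09, adjusted p = 0.0274) and 530 with the inhibitor (−0.51 ± 0.09, adjusted p = 0.00728). In each of these comparisons 1 of 4 Cbl probe sets passed. The first call was lost without Control RNAi replicate 1 or 2 or NF1 RNAi replicate 1 or 3, and in the second comparison 3 Cbl probe sets passed without Control RNAi replicate 1. All 4 fell in the inhibitor group against control (−0.84 to −0.31), the smallest fall being lost in 6 single-array exclusions. Of 21 adaptor probe sets 3 rose and 2 fell with NF1 RNAi, or 4 and 1 with the replicate block. The falls were Cbl and Frs2, whose call was lost in each of the 9 single-array exclusions, and none fell without Control RNAi replicate 1 or 2 or NF1 RNAi replicate 1. The rises included Grb2 (0.34 ± 0.07, adjusted p = 0.00707) on 1 of 3 probe sets, at a mean of 57.3 with NF1 RNAi. The other 2 Grb2 probe sets were far brighter, at means of 2125 and 2232, and did not pass. They differed by 0.21 ± 0.12 and −0.04 ± 0.09 (adjusted p = 0.265 and 0.824).

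The Raf, MEK and ERK kinases and their scaffolds gave 2 rises and 5 falls among 19 probe sets with NF1 RNAi, and 2 rises and 9 falls in the inhibitor group against control. Both rises with NF1 RNAi, Map2k1 and Ppp1cc, were lost without Control RNAi replicate 2 and without NF1 RNAi replicate 1, and 1 of them without Control RNAi replicate 1 or NF1 RNAi replicate 2 or 3. Shoc2, a scaffold of Raf activation, fell from 1377 to 993 with NF1 RNAi (−0.47 ± 0.07, adjusted p = 0.00209) and stood at 831 with the inhibitor (−0.72 ± 0.07 from control, adjusted p = 0.000115). Its other probe set lay near 40.1 in control cells and differed by 0.03 and −0.03. Rps6ka3, the ERK-activated kinase RSK2, fell on 2 of 3 probe sets with NF1 RNAi (267 to 166 on the first, −0.68 ± 0.10, adjusted p = 0.00181) and on all 3 in the inhibitor group against control (−0.89 to −0.67), the smallest fall being lost without Control RNAi replicate 2 or 3 or NF1 RNAi + U0126 replicate 1 or 2. Araf fell by 0.32 ± 0.06 with NF1 RNAi on 1 probe set (adjusted p = 0.00794), while the other differed by 0.27. Between the knockdown groups 1 rose and 2 fell with U0126. The rise was Rps6ka2, the related kinase RSK3, from 532 to 1322 (1.31 ± 0.16, adjusted p = 0.00123), with a control mean of 612. The falls were Ywhab (−0.26 ± 0.06, adjusted p = 0.0313) and Mapk7 (−0.24 ± 0.06, adjusted p = 0.0369), each lost in 6 single-array exclusions.

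Lipid-modifying and trafficking enzymes of Ras gave 3 rises and 2 falls among 13 probe sets with NF1 RNAi. In the inhibitor group against control they gave 6 rises and 2 falls. There the rises numbered 4 to 6 with 1 array left out and 8 with the block. With NF1 RNAi, the falls were Fntb and Zdhhc9, the latter lost in 5 single-array exclusions (Control RNAi replicates 2 and 3, NF1 RNAi replicates 1 and 3, NF1 RNAi + U0126 replicate 2). Fntb, the beta subunit of the farnesyltransferase that lipidates Ras, fell from 434 to 298 with NF1 RNAi (−0.54 ± 0.08, adjusted p = 0.00201) and stood at 249 with the inhibitor (−0.80 ± 0.08 from control, adjusted p = 0.000137). The shared alpha subunit Fnta rose by 0.37 ± 0.09 with NF1 RNAi (adjusted p = 0.0174), a call lost without Control RNAi replicate 2 or NF1 RNAi replicate 2 or 3. Lypla2, a thioesterase that removes palmitate, rose by 0.38 ± 0.07 (adjusted p = 0.00412). With U0126, 2 rose, and with the replicate block Fnta also fell (−0.24, adjusted p = 0.0282). Lypla1, the related thioesterase, rose from 2501 to 4181 (0.75 ± 0.09, adjusted p = 0.000981), and Zdhhc9, a Ras palmitoyltransferase, from 474 to 703 (0.57 ± 0.06, adjusted p = 0.000502). Against control, the protease Rce1 fell by 0.38 ± 0.08 in the inhibitor group (adjusted p = 0.00547).

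Other Ras effectors gave 1 rise (2 with the replicate block) and 2 falls among 26 probe sets with NF1 RNAi. Rassf1 fell from 950 to 511 on 1 of 3 probe sets (−0.86 ± 0.18, adjusted p = 0.00982), and the other 2 differed by −0.20 and −0.17. Rassf5, which binds Ras through a related domain, rose by 0.47 ± 0.06 (adjusted p = 0.00105). Pik3cd fell by 0.46 ± 0.11 on 1 of 2 probe sets (adjusted p = 0.0164, lost without Control RNAi replicate 2 or NF1 RNAi replicate 1). With U0126, Rin1 rose by 0.48 ± 0.11 (adjusted p = 0.0202, lost without NF1 RNAi replicate 1 or 3 or NF1 RNAi + U0126 replicate 2). In that comparison 3 effector probe sets rose with the replicate block or without Control RNAi replicate 1, and 2 without NF1 RNAi + U0126 replicate 1 or 3. Against control 3 rose (Rassf5, Rin1 and Tiam1) and 2 fell in the inhibitor group, and 1 rose without Control RNAi replicate 2. In that comparison 3 fell without Control RNAi replicate 1 or NF1 RNAi replicate 2. Rassf1 (−0.96 ± 0.18) and Rassf5 (0.58 ± 0.06) lay on the same sides as with NF1 RNAi, in comparisons that share the control arrays.

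**Figure D3:**
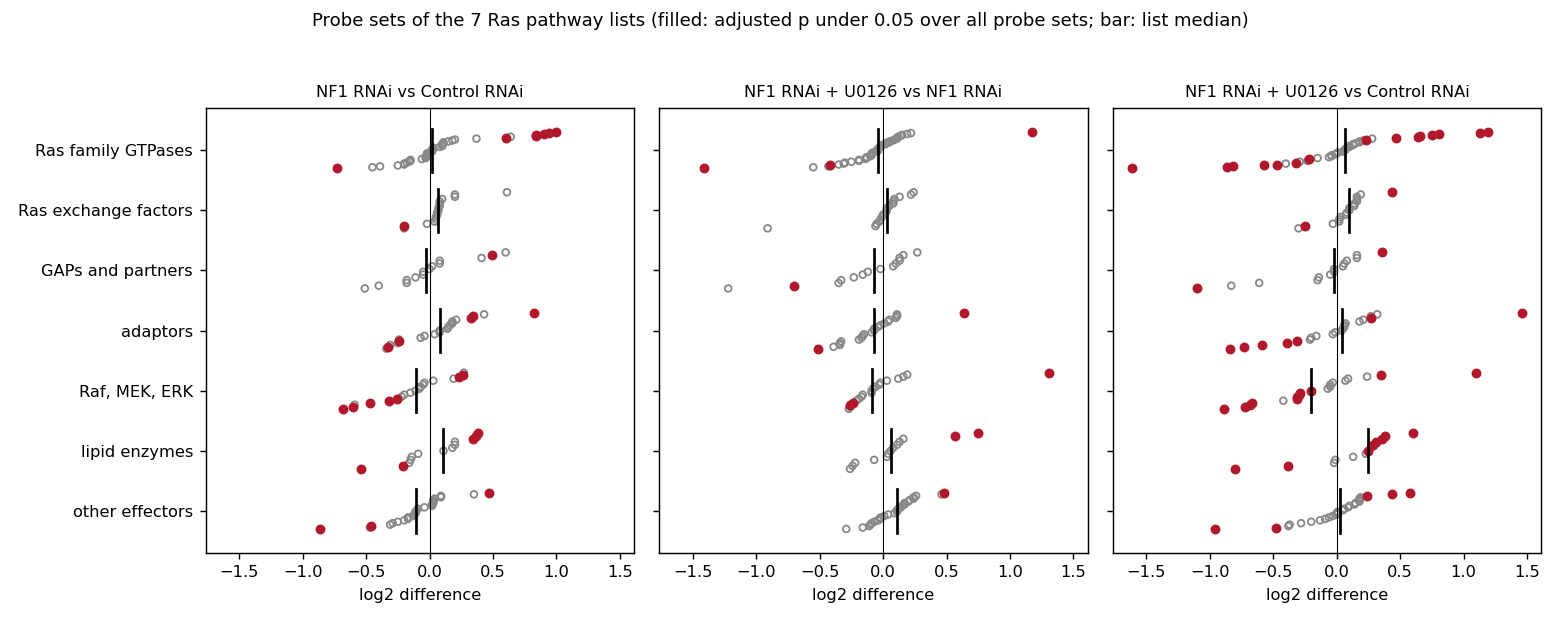
Log2 difference (horizontal axis) of the 150 probe sets of the 7 Ras pathway lists, 1 panel per comparison. Filled points have an adjusted p under 0.05 over all probe sets, open points do not, and black bars are list medians. Filled points number 29, 12 and 50 in the 3 panels, and list medians lie within 0.11 of 0 except in the last panel for Raf, MEK and ERK (−0.20) and lipid enzymes (0.25).

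For 4 of the genes, the 3 closest profiles among named probe sets were taken over the 9 arrays, by the root mean square (RMS) difference of log2 values after each probe set was centred on its own mean. Nf1, whose own RMS deviation was 0.50, lay closest to Tbc1d1 (0.13), Marcks (0.13) and Osbpl1a (0.14). Nras, with 0.81 on its brighter probe set, lay closest to Eif1ax (0.07), Tor1b (0.07) and Slc35a4 (0.11). Eif1ax averaged 3166 in control cells, 1067 with NF1 RNAi and 1009 with NF1 RNAi + U0126. Rasd1, with 1.65, had wider gaps to its nearest profiles, Dyrk3 (0.30), Aass (0.41) and Gpnmb (0.45). Gpnmb averaged 268, 1813 and 4401 in the 3 groups, where Rasd1 averaged 65.7, 639 and 729. Rasal2, with 0.47, lay closest to Tgfa (0.14), Steap2 (0.15) and Plxna3 (0.16). Tgfa, which encodes a ligand of the EGF receptor, averaged 339, 180 and 352. These profiles were picked for their likeness, and so carry no test.

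**Figure D4:**
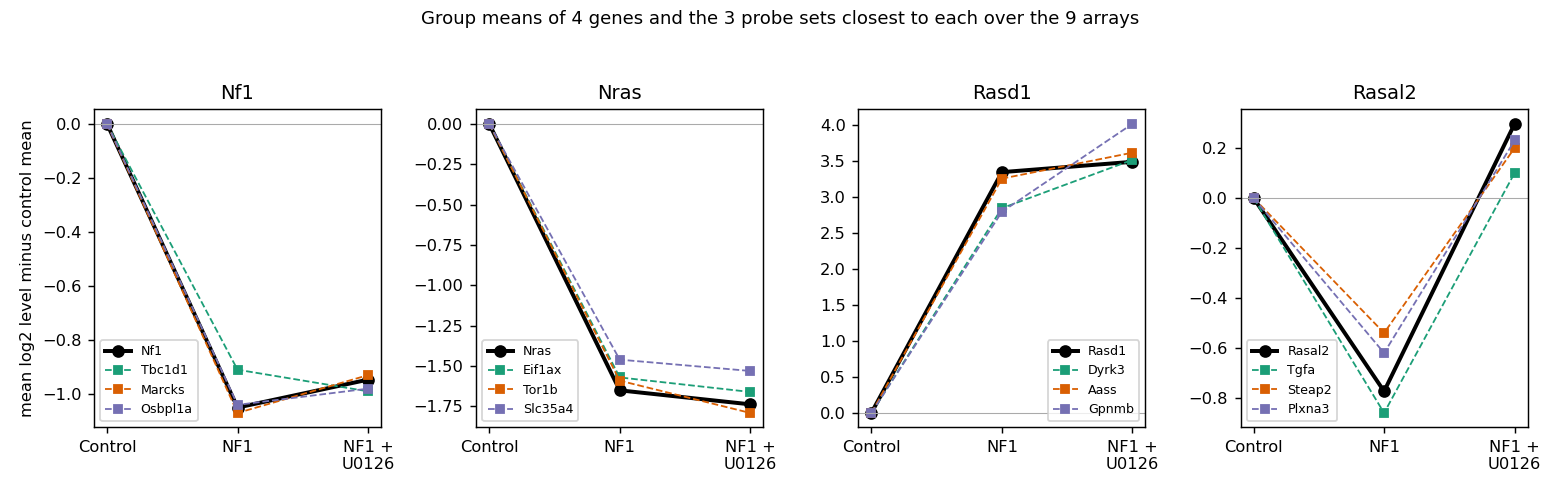
Group mean log2 level minus the control mean (vertical axis) for Nf1, Nras, Rasd1 and Rasal2 (black) and the 3 named probe sets closest to each over the 9 arrays (dashed). Nf1 and Nras stay down with the inhibitor, Rasd1 stays up, and Rasal2 and its neighbours dip with NF1 RNAi alone.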

How the data were processed

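The deposited table holds intensities on a linear scale that the authors made with RMA, per the submitters' processing notes; the sources used here do not name the software or its version. RMA makes array distributions alike, so it hides global shifts. The 57 control probe sets were left out. The platform annotation names 1 gene for 20826 probe sets, several for 436 and lists none for 9780. Symbols were updated through the RefSeq table (20758 by gene ID). log2(intensity + 1) was fitted with limma 3.58.1 in R 4.3.3, by group means over 9 arrays with 6 residual degrees of freedom. The Benjamini-Hochberg adjustment ran over 31042 probe sets at an adjusted p under 0.05, without a filter. The 10 probe sets all pass a filter at log2 6 in 3 arrays, but Nf1 passes only through its 3 control arrays and Mras only through the knockdown groups. The fit was also run on simulated independent normal noise with known changes added. That noise has no effect of replicate number and no distant replicate 1, so it does not check the fit for those. Precision is limited by the number of arrays, and p-values weigh group differences against the spread between replicate arrays.

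Genes and lists were chosen with earlier results of these data known. Named pathway genes are up to 3 passing genes per list and comparison with the largest differences, and Rasa1 and Map2k1. Pmp22, Frs2, Ppp1cc, Tiam1, and Zdhhc9 with NF1 RNAi, were named after their values were seen. The labels do not say what a replicate number marks. Deviations from group means correlated in all 9 same-numbered pairs (r = 0.14 to 0.59), against r = −0.48 to 0.37 in 18 differently numbered pairs. Pairs of a replicate 2 with a replicate 3 correlated too (r = 0.12 to 0.37), so the values do not settle a pairing of these numbers. The main fit does not pair the arrays, and the block on the numbers is an alternative with 4 residual degrees of freedom. Figures used matplotlib 3.10.9.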

Additional observations from a re-analysis of the deposited data

How the results depend on the processing

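Alternatives were quantile normalization, a trended and robust variance, the block, no pseudocount, median centring, a dim-probe filter, a fit to the compared groups alone, a fit to probe sets naming 1 gene, each array left out in turn and, chosen after seeing the data, all replicate 1 arrays left out. The filter removed Rapgef4, Frs3 and the named Grb2 probe set, which have no value there. With the replicate block, the pathway list counts were 37, 18 and 56 in place of 29, 12 and 50. Over all probe sets, 8011, 4520 and 10257 passed with the block in place of 6338, 3113 and 8710. The Nf1 differences stayed at −1.05, 0.10 and −0.95. The block ended no call on a listed gene or on a pathway gene named by the rule. Among the other pathway calls it ended Frs2 with NF1 RNAi and Rem2 and Araf in the inhibitor group against control. The 1 call it added to the listed genes is given beside their count. Leaving out 1 array at a time, all probe sets passing ran from 4550 to 6299 with NF1 RNAi, from 1676 (without NF1 RNAi replicate 2) to 4140 between the knockdown groups, where 2049 passed without NF1 RNAi replicate 3 and 1897 without NF1 RNAi + U0126 replicate 2, and from 6978 to 8923 for the inhibitor group against control. The pathway list counts ran from 20 to 30, from 8 to 23 (23 without Control RNAi replicate 1) and from 39 to 50, and the Nf1 differences from −1.21 to −0.96, from 0.00 to 0.17 and from −1.10 to −0.86. Of 486 other values of the listed genes, 483 moved by less than the replicate SD and none of the called ones reversed. The 3 that moved were without all replicate 1 arrays: Mras at 0.27 and 0.10 in the first 2 comparisons and Rasal2 at 0.10 in the last. Among the listed genes, Rasa2 lost its call between the knockdown groups when only those groups were fitted. Map2k2 gained one against control with quantile normalization or without NF1 RNAi + U0126 replicate 3, Rasal2 one there without Control RNAi replicate 3, and Rasa2 one there without NF1 RNAi + U0126 replicate 3. Without all replicate 1 arrays, Mras passed with NF1 RNAi and Rasd1 between the knockdown groups. Of 1022 values of named pathway genes, 961 kept their direction where called and their side of the threshold, 61 lost a call and none reversed. The cause of these shifts was not tested.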
